A study of Drosophila melanogaster with 2 samples.

Results

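The genes that encode Mediator, the general transcription factors and the RNA polymerase subunits of Drosophila melanogaster were examined as targets of CG18011, a zinc finger protein. They were chosen by symbol: protein-coding genes whose symbol begins with MED or Taf and a digit, with TfII or with Polr, together with Tbp and Trf. This gave 82 of 13945 protein-coding genes on the chromosome arms, of which 25 encode Mediator subunits, 16 TFIID subunits, 10 other initiation factors and 31 polymerase subunits. Among the names so caught, TfIIS is an elongation factor and PolrMT is the polymerase of mitochondria. The data are chromatin immunoprecipitation with sequencing from whole embryos of a transgenic line that expresses CG18011 with GFP at its C terminus, recovered with an antibody against GFP from chromatin sheared to fragments of 200 to 800 bp. The labels at hand do not name the promoter that drives the fusion gene. Embryos were 0 to 24 h old, with males and females together, so the values average over every tissue and stage of the embryo. The 2 libraries, biological replicates 1 and 2, form 1 group. No other condition was studied and a control library was not analysed here, so positions in the genome are what can be set side by side.

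Transcription by RNA polymerase II begins when TFIID, made of the TATA-binding protein Tbp and its associated factors, settles on the core promoter and TFIIA, TFIIB, TFIIF, TFIIE and TFIIH gather around it with the polymerase. Mediator is a large complex that relays signals from DNA-bound activators to this assembly. RNA polymerases I and III, which make ribosomal RNA and small RNAs such as transfer RNA, share several subunits with polymerase II. Most of these genes are needed in nearly every cell, and many fly genes of this kind lie head to head with a neighbour, so that a single short region serves both start sites.

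The sequences below surround the summits of the bound genes with the highest signal, 2 of each class except that Taf13 stands in for Taf5, and are shown because they are the DNA at which CG18011 was mapped. Each runs for 151 bp on the coding strand of the gene, with the summit at position 76, and comes from the RefSeq copy of dm6. Capitals mark matches, on either strand, to the promoter words and the hexamer described further on: TCAGCT at Polr1E and Polr2C, TCAGT on the other strand at Polr2C, GAGAG on the other strand at MED30, and TATAAA at MED27 and Taf13. Taf4, TfIIA-L and TfIIB had no match in this window.
Polr1E (chr3R:18301677-18301827, strand reverse): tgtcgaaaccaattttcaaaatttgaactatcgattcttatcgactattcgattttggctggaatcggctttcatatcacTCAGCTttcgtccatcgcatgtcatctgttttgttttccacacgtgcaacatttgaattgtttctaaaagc
Polr2C (chr2L:13833037-13833187, strand forward): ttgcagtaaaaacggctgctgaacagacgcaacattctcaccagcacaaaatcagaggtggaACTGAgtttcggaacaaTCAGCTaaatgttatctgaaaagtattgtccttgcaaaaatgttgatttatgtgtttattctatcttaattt
MED30 (chr3L:654199-654349, strand reverse): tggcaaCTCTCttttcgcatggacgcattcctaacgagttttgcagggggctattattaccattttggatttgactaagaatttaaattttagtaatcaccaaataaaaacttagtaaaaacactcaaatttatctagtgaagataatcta
MED27 (chr3R:5654918-5655068, strand forward): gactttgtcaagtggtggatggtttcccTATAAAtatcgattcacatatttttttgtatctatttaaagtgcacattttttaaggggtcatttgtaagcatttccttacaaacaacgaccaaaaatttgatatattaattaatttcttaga
Taf4 (chr3L:16113633-16113783, strand forward): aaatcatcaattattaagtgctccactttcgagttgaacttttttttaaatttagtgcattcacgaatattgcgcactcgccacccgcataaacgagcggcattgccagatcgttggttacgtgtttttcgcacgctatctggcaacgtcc
Taf13 (chr2L:20093955-20094105, strand reverse): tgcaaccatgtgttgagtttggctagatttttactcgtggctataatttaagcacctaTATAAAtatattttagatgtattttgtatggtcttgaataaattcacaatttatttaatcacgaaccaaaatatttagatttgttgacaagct
TfIIA-L (chr3R:27253200-27253350, strand forward): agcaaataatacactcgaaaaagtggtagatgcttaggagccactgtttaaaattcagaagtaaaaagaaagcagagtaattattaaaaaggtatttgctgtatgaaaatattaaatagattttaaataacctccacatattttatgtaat
TfIIB (chr2L:10430909-10431059, strand forward): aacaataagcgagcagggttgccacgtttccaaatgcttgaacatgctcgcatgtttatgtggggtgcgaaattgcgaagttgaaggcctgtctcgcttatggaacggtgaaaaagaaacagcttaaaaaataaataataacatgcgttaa

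A gene was called bound when a summit that passed the irreproducible discovery rate (IDR) was found no farther than 500 bp from any of its start sites. That was so for 25 of the 82 genes, a share of 30.5% (exact 95% binomial interval 20.8 to 41.6), against 17.9% of all protein-coding genes. The intervals cover counting error over genes only, and the 82 are part of the total they are set beside. Polymerase subunits had 11 of 31 bound (35.5%, 19.2 to 54.6), Mediator 8 of 25 (32.0%, 15.0 to 53.5) and the other initiation factors 3 of 10 (30%, 6.67 to 65.2), while TFIID with 3 of 16 (18.8%, 4.05 to 45.6) was near the share of all genes. The 4 intervals overlap widely, and no test was made between the classes.

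Much of the distance from the genome as a whole lay in having any peak. A peak of the pooled list before the threshold was found at 67 of the 82 genes (81.7%, exact interval 71.6 to 89.4), against 53.6% of all protein-coding genes. Within those 67 the bound share was 37.3% (25.8 to 49.99), against 33.4% of the 7476 genes with such a peak, which is close to the background. The values for the classes in that narrower count were 11 of 24 polymerase subunits, 8 of 22 Mediator genes, 3 of 8 other initiation factors and 3 of 13 TFIID genes. When each summit was given to the gene of its nearest start site alone, 12 of the 82 were bound, 14.6% against 12.9% of all genes.

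**Figure D1:**
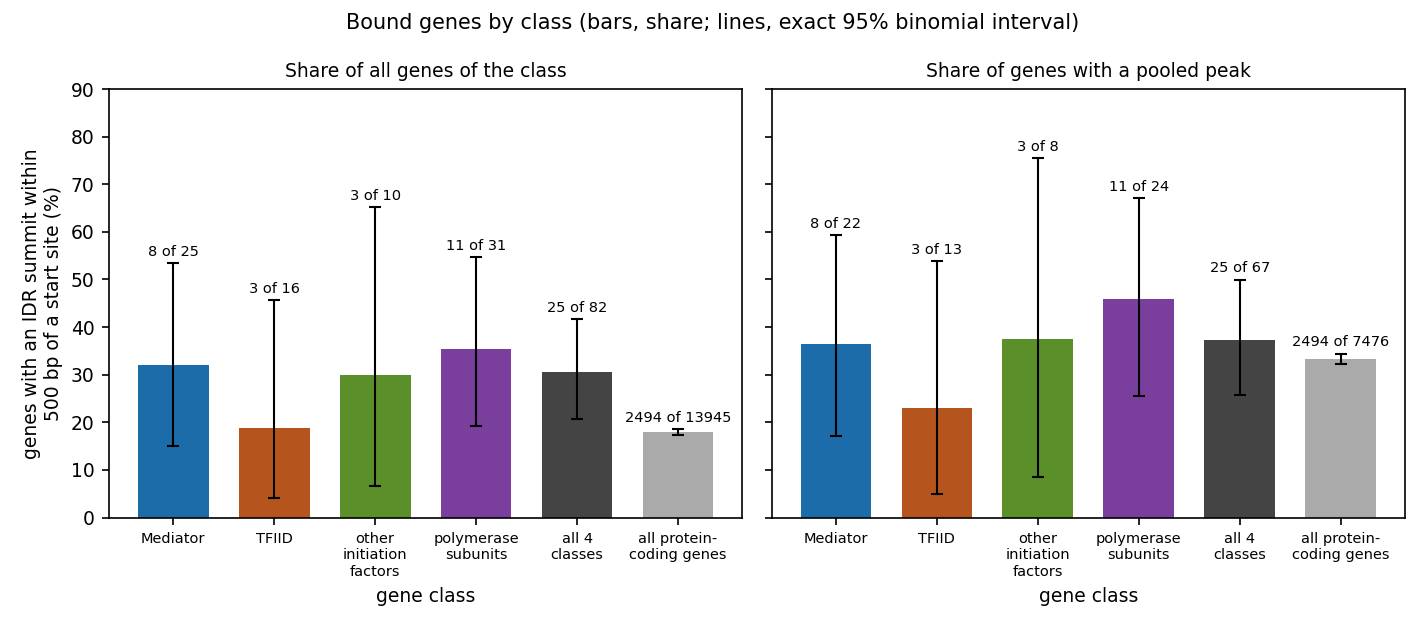
Share of genes with an IDR summit within 500 bp of a start site (percent, vertical axis) by class, of all genes of the class on the left and of those with a pooled peak on the right; lines are exact 95% binomial intervals. The shares run from 18.8% for TFIID to 35.5% for polymerase subunits on the left, against 17.9% of all genes, and the 25 of 67 genes on the right (37.3%) lie close to the 33.4% of all genes with a pooled peak.

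The signals of the bound genes fall far apart. Signal is the value of a peak in the unit of the authors' caller. Relative signal is the value in 1 library over the median of that library at the 3290 IDR peaks, which was 64.6 in replicate 1 and 223 in replicate 2. Polr1E and Polr2C, had mean relative signals above 10, and the other 23 genes lay between 0.621 and 2.35. The median over the 25 was 1.11, so a typical bound gene of this machinery had a signal like that of the middle of the IDR list. The median pooled signal was 327 over the bound genes, against 302 over all 2494 bound protein-coding genes. All 25 summits were covered by a peak of each library, and the SD between the libraries was a median of 11.9% of the mean and at most 41.6%. At all 25 genes the rank in the IDR list was the same as in the pooled list, down to 3104 at MED7. Being bound thus amounts here to a cut on pooled signal. That signal draws on both libraries, so neither value is independent support. Relative signal was higher in replicate 2 for 15 genes and in replicate 1 for 10.

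**Figure D2:**
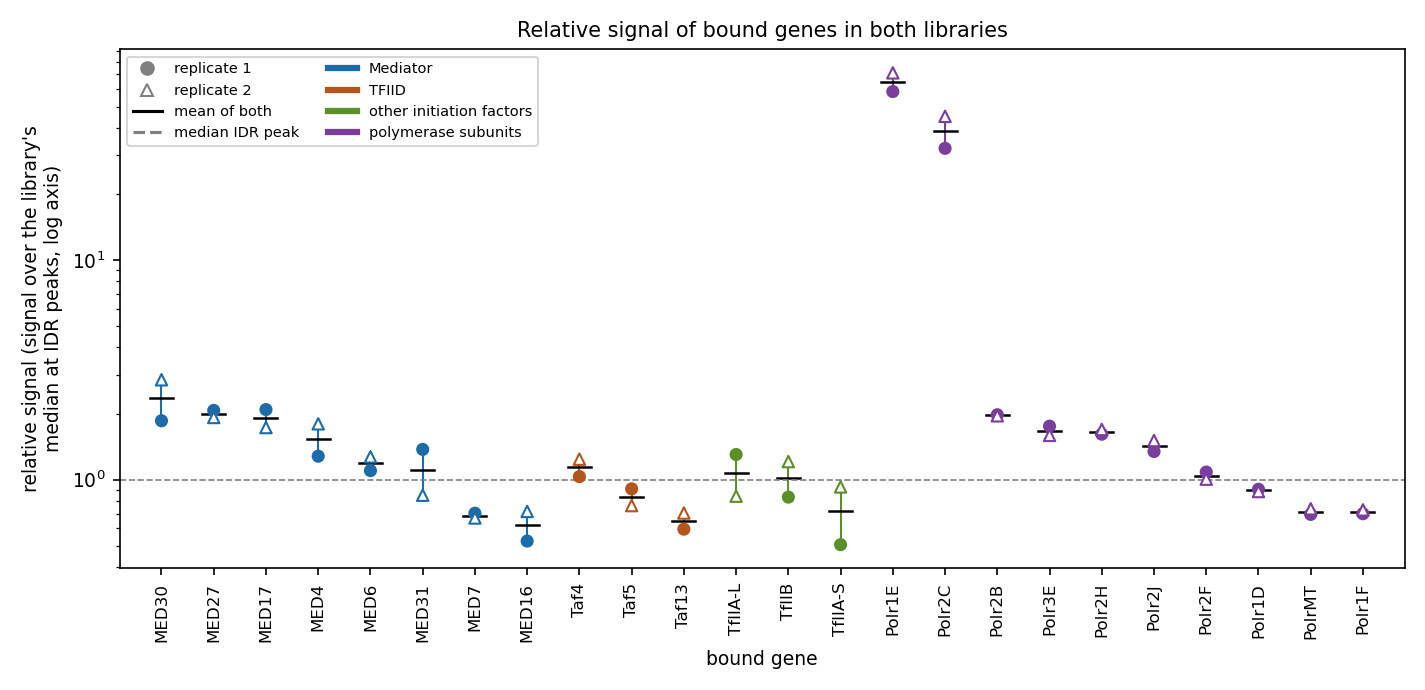
Relative signal of 24 of the 25 bound genes (log axis) in replicate 1 (circles) and replicate 2 (triangles), with the mean of both as a black bar and the classes in colour; the dashed line is the median IDR peak. Polr1E and Polr2C stand at 64.9 and 38.7, and the other 22 genes shown lie from 0.621 to 2.35.

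Polr1E encodes a subunit of RNA polymerase I that serves in the making of ribosomal RNA. Its peak (3R:18300948-18302416) was 1469 bp wide, and the summit at 18301752 lay 24 bp upstream of the start site of FBgn0038601. The signal was 3780 in replicate 1 and 15870 in replicate 2, a relative signal of 58.5 and 71.2 and a mean of 64.9 ± 8.97 (SD, n = 2). The peak ranked 32 in the IDR list, 33 in replicate 1 and 31 in replicate 2, so both libraries place it among their strongest. No other protein-coding gene has a start site within 500 bp of this summit.

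Polr2C encodes the third largest subunit of RNA polymerase II, on which the enzyme's core is assembled. Its peak (2L:13832363-13833760) was 1398 bp wide, with signals of 2083 and 10058 in replicates 1 and 2. The relative signal was 32.3 and 45.1, with a mean of 38.7 ± 9.11 (SD, n = 2), and the rank was 83 in the IDR list, 98 in replicate 1 and 82 in replicate 2. Here the summit at 13833112 lay 225 bp upstream of Polr2C (FBgn0026373) but 7 bp from the shared start site of PolG2 and GatC on the other strand. PolG2 encodes the accessory subunit of the mitochondrial DNA polymerase and GatC a subunit of a glutamyl-tRNA amidotransferase, and the peak cannot be given to 1 of these genes. With the 329 strongest IDR peaks alone, Polr1E and Polr2C were the 2 bound genes of the 82, 2.44% against 1.81% of all genes.

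The other bound genes of polymerase I, Polr1D and Polr1F, and the mitochondrial polymerase gene had weaker peaks. Polr1D, which polymerases I and III share, had a relative signal of 0.904 in replicate 1 and 0.883 in replicate 2, at a summit 200 bp upstream of its start site and nearer to brat, a translational repressor of growth. Polr1F had 0.699 and 0.728 and was bound 38 bp downstream of its start site, in its 5' UTR. PolrMT had 0.695 and 0.736 at a summit nearer to CG14339. In these 3 genes the libraries differed little and both lay below the median IDR peak.

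Among polymerase II genes, 5 of 13 were bound (38.5%, exact interval 13.9 to 68.4), against 17.9% of all protein-coding genes. That wide interval includes the share of all genes. Polr2B, which encodes the second largest subunit, had a relative signal of 1.97 in replicate 1 and 1.95 in replicate 2, with a peak at 3R:14125489-14125856 whose summit lay between its start site and that of 140up. Polr2H had 1.61 and 1.69, at a summit in the 5' UTR of CG11247 and 7 bp from the start site of that gene. Polr2J had 1.34 and 1.51 at a summit nearer to CG15141, and Polr2F had 1.08 and 1.01. The subunits encoded by Polr2F and Polr2H are used by all 3 nuclear polymerases. Polr2A, which encodes the largest subunit and carries the heptad repeats of the C-terminal domain, was not bound: its pooled peak had a signal of 110 and rank 7004, with relative signals of 0.508 and 0.382.

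Polymerase III had 2 of 10 genes bound (20%, exact interval 2.52 to 55.6), near the 17.9% of all protein-coding genes. Polr3E had 2 IDR summits, 265 and 65 bp upstream of its start site, with relative signals in replicate 2 of 1.59 and 0.881. In replicate 1 a single peak covers both summits and gives 1.75 to each, so that library does not tell them apart; the stronger summit is nearer to CG10584. Polr3A, for the largest subunit, had no pooled peak at its start site.

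Of the Mediator genes 8 of 25 were bound, none with a signal near those of Polr1E and Polr2C. MED30 was highest, with a relative signal of 1.85 in replicate 1 and 2.85 in replicate 2 and a mean of 2.35 ± 0.704 (SD, n = 2). Its peak (3L:654053-654407) ranked 382 in the IDR list and lay nearer to the start site of Rev1, which encodes a DNA polymerase that copies past lesions. MED27 had 2.07 and 1.92 at a summit 146 bp from its start site and 132 bp from that of elm. MED17, a subunit of the head module, had 2.08 and 1.73. MED4, of the middle module, had 1.28 and 1.80 at a summit 161 bp upstream with no other gene within 500 bp. In MED30 and MED4 replicate 2 was higher, in MED27 and MED17 replicate 1.

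The remaining bound Mediator genes lay near or below the median IDR peak. MED6, a head subunit, had 1.10 and 1.27, with the summit 1 bp from an annotated start site. MED31, of the middle module, had 1.37 and 0.849; its start site is also that of slx1, a gene for a structure-specific nuclease, and the summit was nearest to CG9775. MED7, also of the middle module, had 0.703 and 0.669, and MED16, of the tail module, 0.525 and 0.716. MED7 (IDR rank 3104, signal 186) was the bound gene closest to the threshold, as the weakest IDR peak had a signal of 179.

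TFIID genes were few and weak among the bound. Taf4, which encodes a core scaffold of TFIID, had a relative signal of 1.03 in replicate 1 and 1.24 in replicate 2, with the summit 82 bp upstream of a start site in an intron of another Taf4 transcript. Taf5, a WD40 repeat subunit, had 0.908 and 0.762 at a summit nearer to Pex6, which encodes a peroxisomal ATPase. Taf13, a histone fold subunit, had 0.595 and 0.705 at a summit nearer to nesd. Taf4 was therefore the only TFIID gene above the median IDR peak in both libraries. With the 3290 strongest peaks of replicate 2 alone in place of the IDR list, TFIID had 5 bound genes, as Taf10 and Taf10b joined, and with those of replicate 1 alone it had 3.

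The TFIID genes closest under the threshold were Taf10 and Taf10b, at 0.966 of the weakest IDR signal, against 0.740 for Tbp and 0.750 for Taf2. Taf10 and Taf10b, which encode a pair of related histone fold subunits, lie head to head and share 1 pooled peak with a signal of 173 and rank 3462. Its relative signal was 0.375 in replicate 1 and 0.681 in replicate 2, both under the median IDR peak. Tbp, for the TATA-binding protein, had a peak 7 bp from its start site with a signal of 132 and relative signals of 0.375 and 0.488. Taf2 had 134 at a summit 384 bp upstream and nearer to CalpB, a calpain gene, and a peak of replicate 1 alone covered it. Taf1, for the largest subunit, and Taf6 and Taf12L had no pooled peak.

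Of the other initiation factors, TfIIA-L, TfIIA-S and TfIIB were bound, while TfIIA-S-2 and the TFIIE and TFIIF genes were not. TfIIA-L, for the large precursor of TFIIA, had a relative signal of 1.30 in replicate 1 and 0.841 in replicate 2, at a summit nearer to pll, the kinase gene of the Toll pathway. TfIIA-S, for the small TFIIA subunit, had 0.506 and 0.927, with no other gene within 500 bp. TfIIB, for the factor that bridges Tbp and the polymerase, had 0.832 and 1.21 at a summit 354 bp upstream, the farthest of the 25, and 66 bp from the start of Bug22. Each of these 3 lies above the median IDR peak in at most 1 library. TfIIFalpha (signal 107), TfIIEalpha (90.3) and TfIIEbeta (81.4) had pooled peaks below the IDR list, and TfIIFbeta had none. TfIIS had 128. Trf, a relative of Tbp that works with polymerase III in flies, and MED20 share a start region and a weak pooled peak of 45.5.

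The genes that were not bound spread over a broad range below the threshold. There were 42 with a pooled peak only, with a signal from 41.9 for Taf12 to 173 for Taf10 and Taf10b and a median of 97.0, against 90.7 over all 4982 such protein-coding genes. A peak of each library covered the pooled summit in 20 of the 42, a peak of replicate 2 alone in 20 and of replicate 1 alone in 2. Within a factor of 1.5 below the weakest IDR peak lay 13 of them: Taf10, Taf10b, Polr1B (162), MED9 (157), Polr3B (135), Taf2, Tbp, Polr3G (132), Polr3F, MED25 and MED8 (130 each), TfIIS and MED18 (120). The highest of the unbound genes were thus MED9 and MED25 in Mediator, Taf10 with Taf10b in TFIID, TfIIS and TfIIFalpha among the other factors, and Polr1B and Polr3B among the polymerase subunits. MED15, of the tail module, had an IDR summit 529 bp from a start site, just outside the window, and was the single unbound gene with one within 1000 bp.

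The other 15 genes had no pooled peak within 500 bp. These were MED21, MED22 and MED26, Taf1, Taf6 and Taf12L, TfIIFbeta and TfIIA-S-2, Polr2D, Polr2K, Polr2L and Polr2M, and Polr3A, Polr3I and Polr3K. The nearest IDR summit to MED21 was 2236937 bp away, on the same arm, and that to MED26, on arm 4, was 116285 bp away. The pooled list stops at 30000 peaks, so a missing peak says that none ranked that high and not that the protein was absent.

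**Figure D3:**
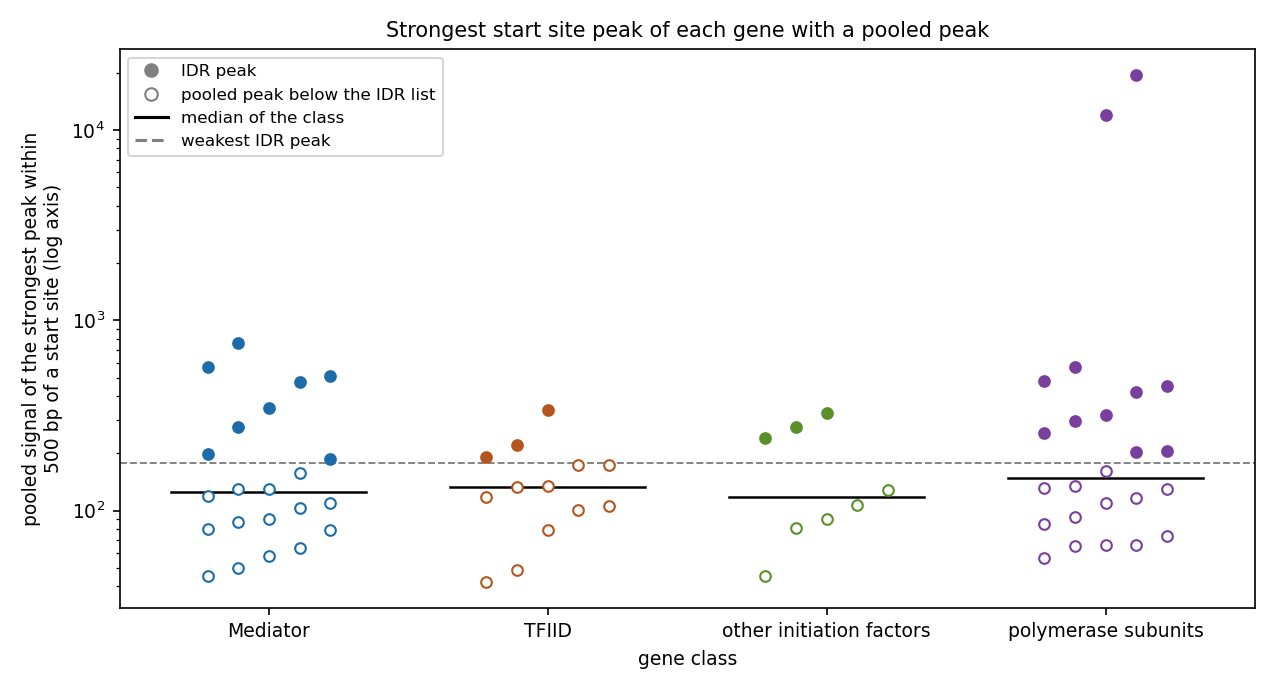
Pooled signal (log axis) of the strongest peak within 500 bp of a start site for the 67 genes that have one, by class, with IDR peaks filled, weaker pooled peaks open, and the class median as a black bar. The dashed line is the weakest IDR peak, 179; 25 genes lie above it and 42 below, and the 2 isolated points are Polr1E and Polr2C.

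Bound genes lay on arms 3R, 2L, 3L and 2R. On 3R 10 of the 25 genes were bound, against 19.4% of all protein-coding genes of the arm, and on 2L 7 of 17, against 19.1%. On 3L 6 of 19 were bound, against 18.3%, and on 2R 2 of 11, against 16.8%. None of the 8 on X was bound, which allows a share of up to 37.5% by a limit of 3 counts, against 15.3% of all genes on X. Both genes on arm 4, MED26 and Taf3, were unbound, against 7.50% of all genes bound there.

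Shared start regions were common among these genes. Genes were called divergent when a second protein-coding gene starts at most 1000 bp upstream and runs in the opposite direction. Of the 82 genes 57 were divergent (69.5%), against 36.2% of all protein-coding genes. Among divergent genes, 21 of the 57 were bound (36.8%), against 31.9% of all divergent genes; among the others 4 of 25 were bound (16%), against 9.92%. In percentage points both gaps were narrower than that between the 30.5% and 17.9% given above. As a ratio, the gap among the genes that are not divergent was similar to it, and it rests on 4 bound genes. Whether the arrangement accounts for the bound share was not tested. Of the 25 bound genes 84.0% were divergent, against 64.6% of all bound genes.

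As a result most summits cannot be given to 1 gene. For 20 of the 25 bound genes another protein-coding gene has a start site within 500 bp of the same summit, 80.0% against 58.2% of all bound genes, and in 14 of the 25 that other gene is the nearer. Which gene is nearer can rest on few bp, as at MED27 and elm (146 and 132 bp). A library's own summit can also lie apart from the IDR summit, by 119 bp in replicate 1 at Taf13. The neighbours have varied roles: Rat1, beside Polr1F, encodes a nuclear 5' to 3' exoribonuclease, and Cap-H2, beside MED7, a subunit of condensin II. The 5 genes alone at their summits were Polr1E, MED4, Taf4, TfIIA-S and Polr2F.

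Summits lay upstream of the start sites. In 23 of the 25 genes the summit was upstream, with a median position of -143 bp and a range from -354 to 38 bp, against a median of -115 bp over all bound genes, of which 86.2% were upstream. The summit fell in intergenic sequence in 16 genes, in a 5' UTR in 5, in an intron in 3 and in a 3' UTR in 1, Polr2F, where it lies in the annotated ends of CG31542 and CG34277. In 11 of the 25 the peak had a width of 416 bp, the most common width in the IDR list, which 46.1% of its peaks share. The other 14 include the 2 wide peaks of Polr1E and Polr2C.

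**Figure D4:**
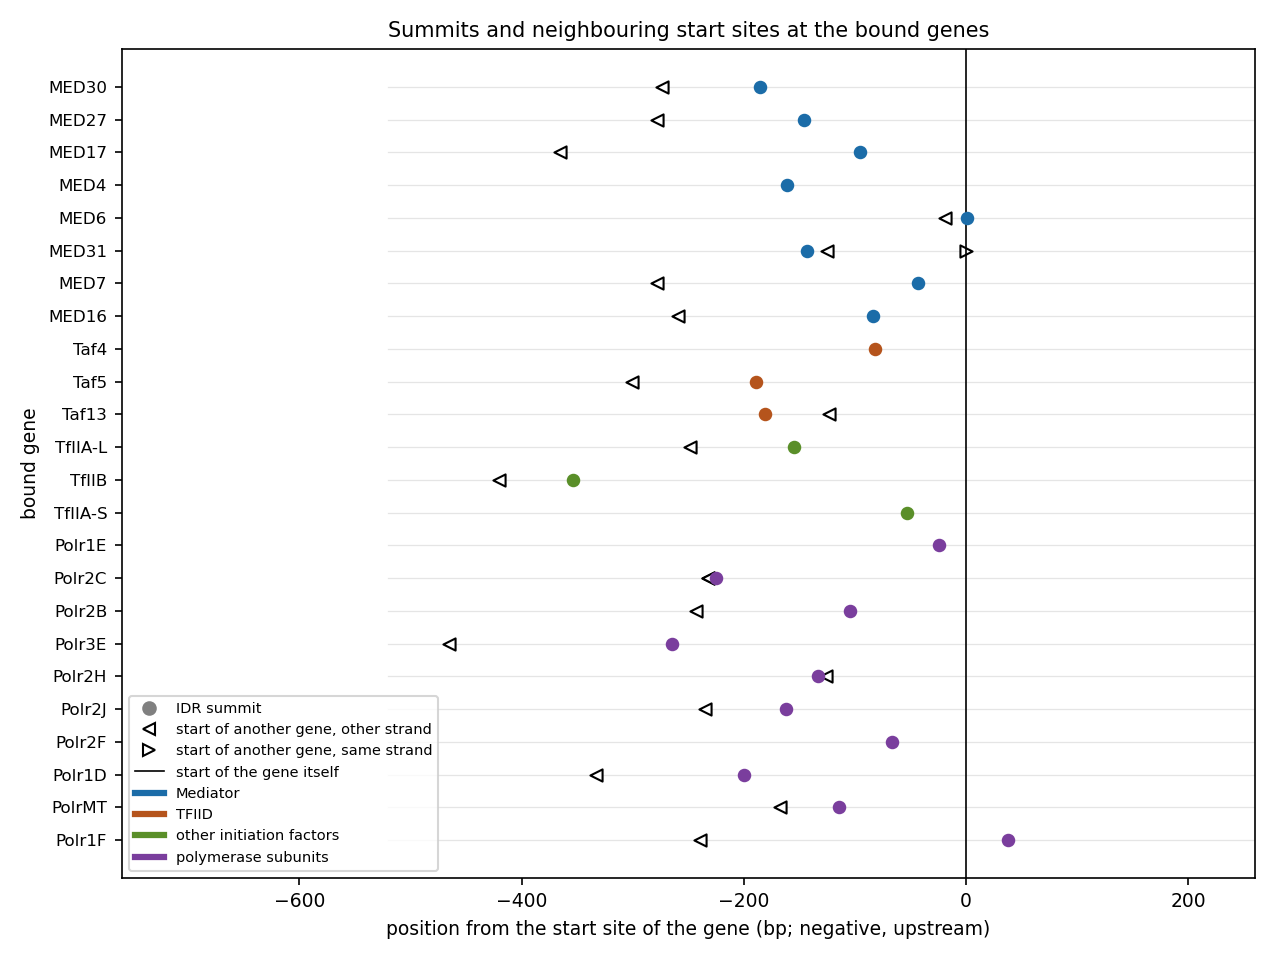
Position of the IDR summit (coloured dots) from the start site of 24 of the 25 bound genes (vertical line at 0; negative values are upstream, in bp), with start sites of other protein-coding genes within 500 bp of the summit as triangles that point in their direction of transcription. In 22 of the 24 genes the dot lies upstream, and 19 genes have a neighbour, each of them with at least 1 on the other strand.

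Known promoter words were searched on both strands from 250 bp before to 50 bp after the 5' end of each gene. In the bound genes MED6, Taf4, TfIIA-L and Polr1D the start site nearest the summit lies farther inside the gene, so this window does not cover it. The core of Motif 1, GGTCACAC, a word bound by M1BP, was found in 22 of the 82 genes (26.8%), against 7.70% of all protein-coding genes. Of the bound genes 4 of 25 held it, Taf4 among them, and of the unbound 18 of 57. The DRE, TATCGATA, which is bound by DREF, was in 13 of the 82 (15.9%), against 9.36%, with 2 of 25 bound and 11 of 57 unbound genes. The core of Motif 7, CANCNCTA, was in 25.6%, against 15.6%. The first 2 words were thus held by a smaller share of the bound than of the unbound genes of this machinery, a difference of few genes that was not tested. Over the genome 11.2% of all bound genes held the Motif 1 core and 16.3% the DRE.

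The other words searched were close to or below the level of the genome in this window. The TATA box, TATAAA, was in 43.9% of the 82 promoters, against 45.8%, the E-box, CAGCTG, in 19.5%, against 17.7%, GAGAG in 20.7%, against 29.7%, and the initiator word TCAGT in 32.9%, against 51.5%. In a shorter window of 100 bp to each side GAGAG was in 9.76%, against 22.4%, and the E-box in 12.2%, against 13.8%. There the initiator word was in 23.2%, against 42.7%, while the TATA box was in 35.4%, above the 29.1% of all genes. These are matches of letters, and no match says only that the letters are not in this window.

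The sequences at Polr1E and Polr2C share a short word near the summit. The hexamer TCAGCT, chosen after both sequences had been seen, stands at positions 81 to 86 of the Polr1E sequence and 80 to 85 of the Polr2C sequence, centred 7.5 and 6.5 bp from the summit on the coding strand. Within 30 bp of the summit it was found, on either strand, at 3 of the 26 summits of the bound genes, the third being Polr3E. The matches at Polr1E and Polr2C were fixed by that choice, so the 3 of 26 cannot be set against the shares below. It was at 46 of the 327 other summits among the 329 strongest (14.1%) and at 4.15% of the 2937 remaining IDR summits, against 2.45% and 3.51% in windows centred 1000 bp to the left. Promoter windows of the same 61 bp held it in 3.51% of all protein-coding genes. The hexamer overlaps the E-box by 5 letters where a G follows it.

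Longer words of the strongest peaks had no match near these summits. Among words of 8 bases with at least 1 G or C, the 2 held by the largest number of the 327 strongest summits outside these genes were AGCTTTTG (54 summits, 16.5%) and AAAAGCTG (42 summits, 12.8%), which overlap each other by 7 letters on opposite strands and were chosen from these peaks. Each was found within 100 bp of 0 of the 26 summits here, which allows a share of up to 11.5% by a limit of 3 counts, against 2.42% and 2.11% of the 2937 weaker IDR summits and 2.83% and 2.53% of all promoters. Most of the strongest summits hold neither word, so lacking them does not set Polr1E and Polr2C apart.

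Genes that work beside this machinery but carry other symbols were counted from lists by name, against the 17.9% bound of all protein-coding genes. In the kinase module of Mediator 1 of 4 was bound, skd, with a relative signal of 0.910 ± 0.0885 (SD, n = 2) at a summit 476 bp upstream that it shares with Pdss2, while kto, CycC and Cdk8 had pooled peaks only. TFIIH had 4 of 10 bound, and its highest, Ssl1, shares the summit with Chro, at 6.16 ± 0.812 (SD, n = 2). The histone acetyltransferase complex SAGA, which contains several Taf proteins, had 7 of 15 bound (15 of 16 symbols matched), among them its catalytic subunit Gcn5, beside ver, with 2.09 ± 0.0220 (SD, n = 2). Genes with Taf symbols were counted under TFIID above and are not among these 15. Pausing and elongation factors had 7 of 16 (16 of 23 symbols matched), with Nelf-E, beside RpL14, at 2.62 ± 0.364 (SD, n = 2). Initiation factors of polymerases I and III had 3 of 8 (8 of 10 symbols matched), with the TFIIIB subunits Bdp1, beside CG6565, at 2.87 ± 0.0644 and Brf, beside sds22, at 1.96 ± 0.0535 (SD, n = 2 each). The 8 include CG9609, unbound, whose place in this list is uncertain. Of testis TAFs and relatives of Tbp 1 of 5 was bound (5 of 6 symbols matched), Trf2, at 0.944 ± 0.233 (SD, n = 2). These are small lists with no test, and none of the genes named here reached the signals of Polr1E and Polr2C.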

How the data were processed

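Chromatin immunoprecipitation with sequencing of 2 libraries was deposited as peak lists in narrowPeak format on dm6, per the labels and the text deposited with them: a list per library and a pooled list, each before any threshold and of 30000 peaks, and the optimal IDR list of 3290. The signal per peak was made by the authors, in the unit of their peak caller. Which caller was used, how it scaled the signal, the IDR threshold and read depth are not stated in what was at hand. A signal therefore has no counting interval. Lists on dm3 were not used.

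Start sites came from Ensembl release 115 (gene models BDGP 6.54) and sequence from the RefSeq copy of dm6, in which 99.5% of 30748 coding transcripts begin with ATG. A pooled peak outside the arms was left out. A library's value is its strongest peak over the IDR summit. Where a gene has several summits, the strongest was used. Lists of neighbouring factors were matched by exact symbol. They hold some spellings of the same name, such as Spt4 and spt4, so an unmatched symbol need not be a gene left out. Named genes are all bound ones but 1, which is in the counts but not reported here by name, the highest unbound ones of each class and those within a factor of 1.5 of the weakest IDR signal. Other unbound genes were named to account for the rest or after their values were seen. The genes and lists were chosen with earlier results of these data known. No test was made between gene sets, since the design has 1 group. The pairing of summits and start sites was tested on simulated data. Tools were scipy 1.17.1, pandas 2.3.3, numpy 2.4.6 and matplotlib 3.10.9 under Python 3.11.15. Alternatives were other windows, peak sets, start sites and assignments, and each library alone.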

Additional observations from a re-analysis of the deposited data

How the results depend on the processing

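The count of 25 bound genes stayed within 1.5 times under 6 of 10 alternatives: 24 within 250 bp, 26 within 1000 bp, 19 where the peak had to cover a start site, 25 with start sites of protein-coding transcripts alone, and 24 to 27 with either library alone. The bound share of the 82 was above that of all genes in each of the 10, which reuse the same libraries and are not independent. The start sites of protein-coding transcripts gave the same 2494 bound genes as the main setting, so that alternative adds nothing. With the nearest start site alone the shares were close, 14.6% against 12.9%. With the strongest 329 peaks they were 2.44% against 1.81%, over 2 genes. Giving each summit to its nearest start site alone left 12 in all, 5 in Mediator, 1 in TFIID, 1 among other initiation factors and 5 polymerase subunits. These are 20% of Mediator, 6.25% of TFIID, 10% of other initiation factors and 16.1% of polymerase subunits, against 12.9% of all genes. The stronger 1645 IDR peaks left 15 (18.3%, against 9.97% of all genes). They were 5 in Mediator (20%), 1 in TFIID (6.25%), 1 among other factors (10%) and 8 polymerase subunits (25.8%). The strongest 329 left 2, both polymerase subunits, and 0 in each other class. The 6580 strongest pooled peaks gave 40 (48.8%, against 29.4% of all genes), with 8 in TFIID (50%). Leaving out a library gave from 7 to 8 in Mediator, 3 to 5 in TFIID, 2 to 3 among other factors and 11 to 12 polymerase subunits. Of all genes 18.0% were bound without replicate 1 and 17.1% without replicate 2. The 27 genes of replicate 2 alone include all 25, and the 24 of replicate 1 alone include 22, without MED16, Taf13 and TfIIA-S. Fewer or more peaks change these counts by construction, as does giving a shared summit to 1 gene.

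The divergent share of bound genes was 80.0% at 500 bp in place of 84.0%. In a shorter promoter window, 100 bp to each side, the TATA box was in 28% of bound genes in place of 52.0%, and in 29.1% of all protein-coding genes in place of 45.8%. The DRE was in 1 bound gene in place of 2, and GAGAG in 4 in place of 7; over the 82 genes GAGAG was in 8 in place of 17 and the E-box in 10 in place of 16. Dividing by the median of a library's whole list moved all 25 relative signals by construction. No paired analysis was possible because the samples form 1 group. Depth is unknown, and the 30000 peaks of each relaxed list bound what could be seen.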
